A study of Homo sapiens with 4 samples.

Results

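The MIR489 and MIR653 hairpins are neighbouring miRNA genes that lie inside CALCR, the gene of the calcitonin receptor. Their 4 mature arms, hsa-miR-489-3p, hsa-miR-489-5p, hsa-miR-653-5p and hsa-miR-653-3p, were taken by name from the 2656 mature miRNAs listed. The locus was chosen by name after the read counts of its arms in these 4 libraries had been seen, so their levels and ratios are given as a description. Small RNA was sequenced from RD cells, an established line of embryonal rhabdomyosarcoma, which is a tumour with features of skeletal muscle. The cells were untreated. Biotinylated probes were added to native lysate and recovered on streptavidin beads. The EVEN and the ODD pull-downs each used one of 2 probe sets against exon 2 of HIPK3, the exon that forms the circular RNA circHIPK3. A pull-down with probes against the bacterial LacZ mRNA served as the control, and the input lysate was sequenced beside them. This gave 4 libraries with 1 library and 1 biological replicate per group, so no difference below has a replicate check. Intervals are 95% exact intervals that cover counting error only and describe these libraries, not the conditions.

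An miRNA gene is transcribed as a longer RNA that is cut to a hairpin and then to a short duplex of a 5p and a 3p arm, of which usually one is kept by an Argonaute protein. The kept arm finds its targets mainly through its seed, bases 2 to 8. In mouse, miR-489 is known for holding satellite cells, the stem cells of skeletal muscle, in quiescence by repressing Dek, and the calcitonin receptor marks these quiescent cells. Neighbouring hairpins in one intron can come from the same primary transcript, while the cutting and the stability of each arm can differ.

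The mature sequences from RefSeq (GRCh38.p14) are shown because seed and arm identity define what was counted, with the seed in capitals.
miR-489-3p: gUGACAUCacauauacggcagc
miR-653-5p: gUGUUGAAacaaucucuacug
miR-653-3p: uUCACUGGaguuuguuucaaua
The 3 arms have 3 different seeds, and no other mature miRNA in the RefSeq table shares bases 2 to 8 with any of them. The arms differ in base composition, with 50.0% G and C in miR-489-3p, 38.1% in miR-653-5p and 31.8% in miR-653-3p. The hairpins are shown with these mature arms in capitals.
MIR489: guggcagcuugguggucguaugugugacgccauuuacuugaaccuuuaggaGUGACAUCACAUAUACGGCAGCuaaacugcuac
MIR653: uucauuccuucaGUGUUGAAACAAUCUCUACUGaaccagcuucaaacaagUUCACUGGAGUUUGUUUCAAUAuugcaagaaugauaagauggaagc
MIR489 lies at chr7:93483936-93484019 and MIR653 at chr7:93482760-93482855, both on the minus strand, with 1080 nt between them. CALCR spans chr7:93424487-93574730 on the same strand. In all 8 CALCR transcripts of GENCODE release 29, both hairpins lie in one and the same intron, and neither overlaps a CALCR exon.

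The libraries held 98950 miRNA reads for EVEN, 426450 for ODD, 425395 for LacZ and 2987858 for the input. Counts of 0 were set against a floor of 3 reads, which is 30.3 CPM (the deposited counts-per-million unit, scaled to all miRNA reads of the library) in EVEN, 7.03 in ODD, 7.05 in LacZ and 1.00 in the input. The upper end of the exact interval of a count of 0 lies higher, at 37.3 CPM in EVEN, 8.65 in ODD, 8.67 in LacZ and 1.23 in the input.

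Both hairpins were measured in the input almost only through their 3p arms, at levels within 2-fold of each other. miR-653-3p had 343 reads, or 114.8 CPM (interval 103 to 128), and ranked 195 of 1146 detected miRNAs. miR-489-3p had 254 reads, or 85.0 CPM (74.9 to 96.1), and ranked 222. The levels of the 2 arms compare shares of reads, and how well each arm is ligated and amplified was not measured. miR-653-5p had 2 input reads, 0.669 CPM (0.0811 to 2.42), and 0 reads in each pull-down. miR-489-5p was listed with 0 reads in all 4 libraries.

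The 3p arm of MIR653 thus took 99.4% (97.9 to 99.9) of the reads of its hairpin in the input, 171.5 reads for each read of the 5p arm (47.1 to 1422). The 3p arm of MIR489 was at least 84.7-fold above its 5p arm, taken against a floor of 3 counts. Of 266 hairpins with both arms listed and at least 20 input reads, 46.6% had the higher count on the 3p arm. With 0.5 added to each arm, 20 of them were more unequal than MIR489 and 59 more unequal than MIR653. These ranks depend on the constant, since with 5 added the log2 ratios of the arms were nearly equal in the 2 hairpins, 5.69 for MIR489 and 5.64 for MIR653. In the EVEN library MIR489 had 50 reads against 0, and in LacZ MIR653 had 186 against 0, so that the 3p arm was at least 16.7-fold and at least 62.0-fold higher. Where the 3p arm had at least 20 reads, no sign of a switch to the 5p arm was seen. A 5p arm below these limits would not have been detectable at this depth. For MIR489 in LacZ, with 11 reads against 0, the interval of the 3p share ran from 71.5% to 100%. With 2 or 3 reads, MIR653 in EVEN and both hairpins in ODD were too shallow to show a switch.

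**Figure D1:**
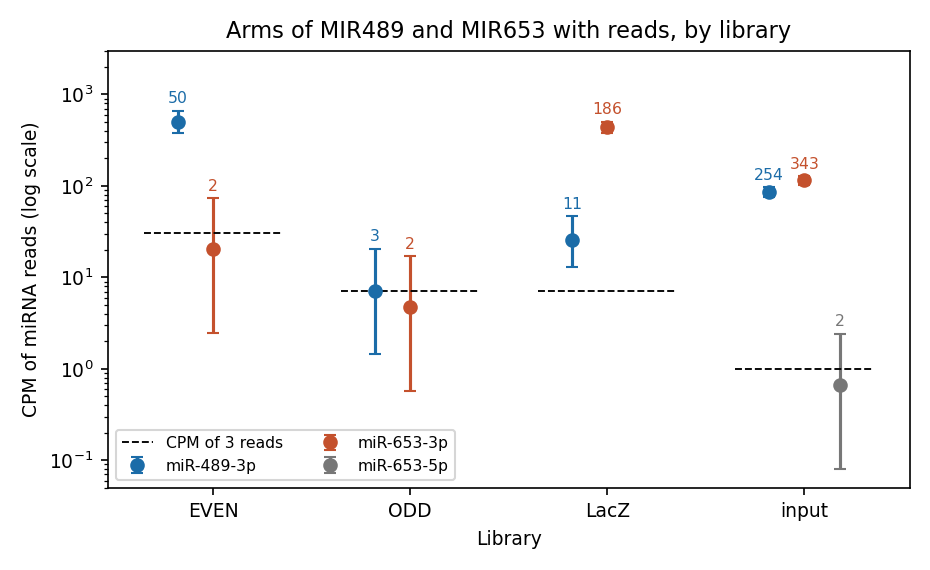
Levels of miR-489-3p, miR-653-3p and miR-653-5p as CPM on a log axis in the EVEN, ODD, LacZ and input libraries, with 95% exact binomial intervals and the read counts above each point; dashed lines give the CPM of 3 reads. miR-489-3p is highest in EVEN (50 reads) and miR-653-3p in LacZ (186 reads), while both have 3 reads or fewer in ODD. Points with 0 reads, among them all of miR-489-5p, are not drawn.

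miR-489-3p was high with the EVEN probes and low in the other pull-downs. It had 505 CPM (375 to 666) in EVEN from 50 reads, 7.03 CPM (1.45 to 20.6) in ODD from 3 reads, 25.9 CPM (12.9 to 46.3) in LacZ from 11 reads and 85.0 CPM in the input from 254 reads. The interval of the EVEN library lies above those of the other 3 libraries, which follow in the order input, LacZ and ODD, and the intervals of LacZ and ODD overlap. In EVEN it ranked 95 of 439 detected miRNAs, in ODD 361 of 592 and in LacZ 318 of 745.

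miR-653-3p had the opposite order between EVEN and LacZ. It had 20.2 CPM (2.45 to 73.0) in EVEN from 2 reads, 4.69 CPM (0.568 to 16.9) in ODD from 2 reads, 437 CPM (377 to 505) in LacZ from 186 reads and 114.8 CPM in the input from 343 reads. LacZ stands above the input, and the input above EVEN and ODD, whose intervals overlap each other. It ranked 131 of 745 detected miRNAs in LacZ. At their LacZ shares, an EVEN library of this depth would hold 43.3 reads of miR-653-3p and 2.56 of miR-489-3p, against the 2 and 50 reads counted.

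The share of the whole cluster does not show this difference between EVEN and LacZ. Its 4 arms together took 526 CPM (393 to 689) in EVEN, 11.7 CPM (3.81 to 27.4) in ODD, 463 CPM (401 to 532) in LacZ and 200.5 CPM (185 to 217) in the input. EVEN and LacZ have overlapping intervals, although the reads of EVEN come mostly from one hairpin and those of LacZ mostly from the other. ODD is lowest, with 5 reads in all.

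The ratio of the 2 arms within a library does not depend on how libraries are scaled. For each read of miR-653-3p there were 25.0 reads of miR-489-3p in EVEN (6.57 to 212), 1.50 in ODD (0.172 to 17.96), 0.0591 in LacZ (0.0290 to 0.108) and 0.741 in the input (0.627 to 0.874). EVEN and LacZ lie on opposite sides of the input, and neither interval overlaps that of the input. The ratio was 423 times as high in EVEN as in LacZ (86.5 to 3749) and 33.8 times as high in EVEN as in the input (8.70 to 288). In LacZ it was 0.0799 times the input ratio (0.0384 to 0.151). In ODD, with 3 and 2 reads, it was 2.03 times the input ratio, with an interval that includes 1 (0.230 to 24.4).

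**Figure D2:**
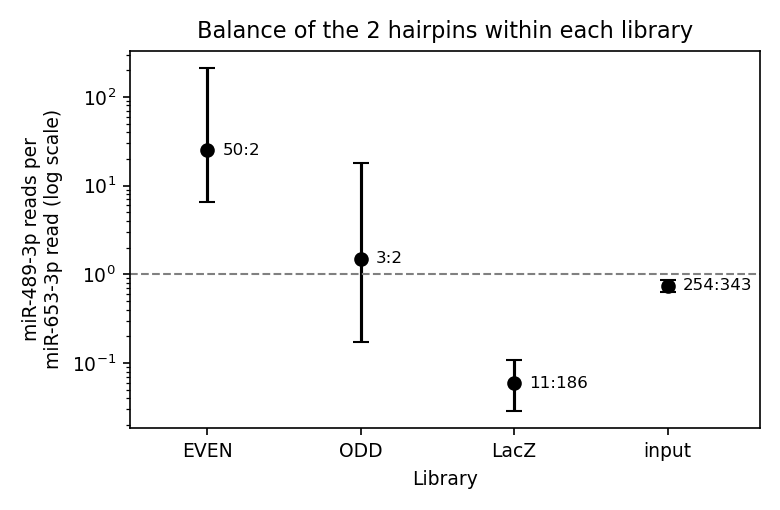
Reads of miR-489-3p for each read of miR-653-3p (log axis) in the EVEN, ODD, LacZ and input libraries, with 95% exact intervals and the counts of both arms beside each point; the dashed line marks equal counts. EVEN lies at 25.0 and LacZ at 0.0591, on either side of the input at 0.741, and the interval of ODD spans the line.

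The comparison of each probe set with LacZ asks which miRNAs the probes recovered beyond what control probes retain. Only miRNAs with a minimum of 20 reads in 1 or both of the libraries compared were tested, and a miRNA was called at 2-fold on the ratio of shares of reads. With EVEN probes over LacZ, miR-489-3p was 19.5-fold higher (10.04 to 41.6), and its log2 ratio of 4.24 was number 5 from the top of 289 tested miRNAs. Of these 289, 9.69% were at least 2-fold higher. miR-653-3p was 21.6-fold lower with EVEN probes (5.90 to 180), with a log2 ratio of -4.12, number 16 from the bottom, where 51.2% of the 289 were at least 2-fold lower. Over the 289, the log2 ratios had a median of -1.06, from which miR-489-3p differed by 5.30 and miR-653-3p by -3.06. miR-489-3p passed the read minimum only through EVEN (50 reads, 11 in LacZ) and miR-653-3p only through LacZ (186 reads, 2 in EVEN). Each thus entered the tested set through the library where it was high, and these ranks and distances are a description. With no minimum the median was -0.22, with 149 of 789 miRNAs higher and 248 lower.

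With ODD probes over LacZ, miR-653-3p was 93.2-fold lower (25.4 to 776), from 2 and 186 reads. Its log2 ratio of -6.22 was number 2 from the bottom of 300 tested miRNAs, of which 70.3% were at least 2-fold lower and 13.0% at least 2-fold higher. The median of these 300 was -1.79, and relative to it miR-653-3p lay at -4.43. Here too miR-653-3p passed the read minimum only through LacZ, where it was high. miR-489-3p had 3 reads in ODD and 11 in LacZ, under the minimum in both. Its ratio of 3.68-fold lower has an interval that includes no difference (0.971 to 20.5 times lower) and was not called. Both comparisons share the LacZ library, so its high miR-653-3p level enters both.

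Set directly beside each other, the probe sets differed in miR-489-3p, which was 71.8-fold higher with EVEN than with ODD probes (23.2 to 360), from 50 and 3 reads. Its log2 ratio of 5.96 was number 3 from the top of 203 tested miRNAs, with a median of 0.64 over all of them. Of these 203, 37.9% were at least 2-fold higher with EVEN and 18.2% at least 2-fold lower. miR-489-3p passed the read minimum only through EVEN, where it was high. miR-653-3p had 2 reads in each set, under the floor of 3 counts, so no fold is given. Both probe sets aim at the same exon, and how much circHIPK3 each set recovered was not analysed here.

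Against the input, the direction of each arm depended on the pull-down. miR-489-3p was 5.94-fold higher in EVEN (4.30 to 8.08), where its log2 ratio ranked 31 from the top of 464 and 18.3% of these passed 2-fold upward. It was 12.1-fold lower in ODD (4.09 to 59.0), where 68.6% of 468 were at least 2-fold lower. It was also 3.29-fold lower in LacZ (1.81 to 6.67), where 34.3% of 475 were at least 2-fold lower. The EVEN library alone of the 3 pull-downs thus held a larger share of miR-489-3p than the lysate.

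miR-653-3p was 5.68-fold lower in EVEN than in the input (1.56 to 47.1), where 52.2% of 464 tested miRNAs were at least 2-fold lower, and 24.5-fold lower in ODD (6.72 to 203). It was 3.81-fold higher in LacZ (3.17 to 4.57), where 18.1% of 475 were at least 2-fold higher. Its log2 ratios lay at -1.12 in EVEN and -2.10 in ODD relative to the medians of those comparisons, -1.06 and -2.19. The control pull-down was thus the library with the largest share of miR-653-3p, and the distance of EVEN and ODD from LacZ is larger than their distance from the input.

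**Figure D3:**
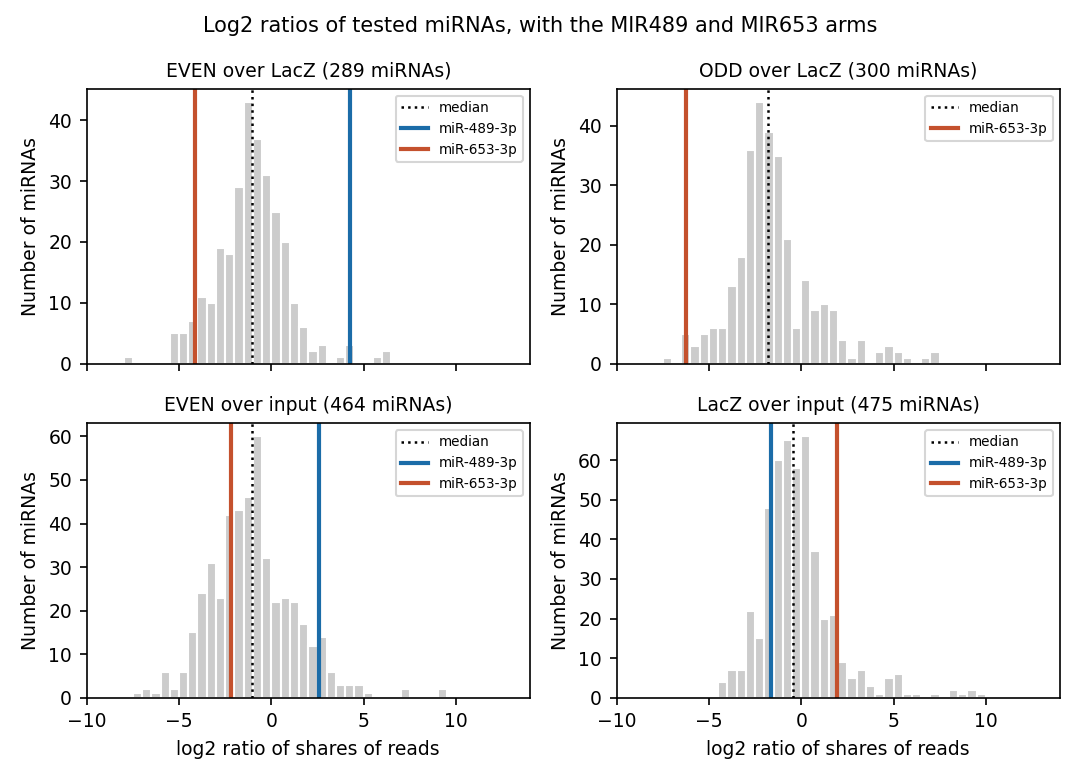
Histograms of log2 ratios of the shares of reads (horizontal axis) over all tested miRNAs (number on the vertical axis) for EVEN over LacZ, ODD over LacZ, EVEN over input and LacZ over input, with lines at miR-489-3p, miR-653-3p and the median. miR-489-3p lies right of the median in both EVEN panels, at 4.24 and 2.58, and left of it for LacZ over input, at -1.66, while miR-653-3p lies on the other side in each of these panels.

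Hairpins close together on one strand give a scale for such a divergence. Pairs of hairpins with at most 10000 nt between them were compared, each by the arm with most reads among mature miRNAs encoded by a single hairpin. For EVEN over LacZ, the log2 ratios of the arms from MIR489 and MIR653 differed by 8.36, against a median difference of 1.03 over 52 pairs, and theirs was the second largest. The largest, 9.32, was between miR-18a-5p and miR-19b-1-5p of MIR17HG. For EVEN over the input the difference was 4.77 (number 9 of 145 pairs, median 1.60). For LacZ over the input it was 3.59 (number 6 of 146, median 1.15). For ODD over the input it was 0.92 (number 116 of 145, median 2.15), from 3 and 2 ODD reads. There the ratio of the arms relative to the input had an interval of 0.230 to 24.4, so the ODD rank is not well determined. For EVEN over LacZ, miR-489-3p passed the read minimum only through EVEN and miR-653-3p only through LacZ, each the library where it was high. The difference of 8.36 also rests on 2 EVEN reads of miR-653-3p. With 5 added to each count, the log2 ratios were 3.89 for miR-489-3p and -2.67 for miR-653-3p. The pairs share hairpins and libraries and are not independent, and this pair was chosen with its counts known. These ranks are therefore a description.

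**Figure D4:**
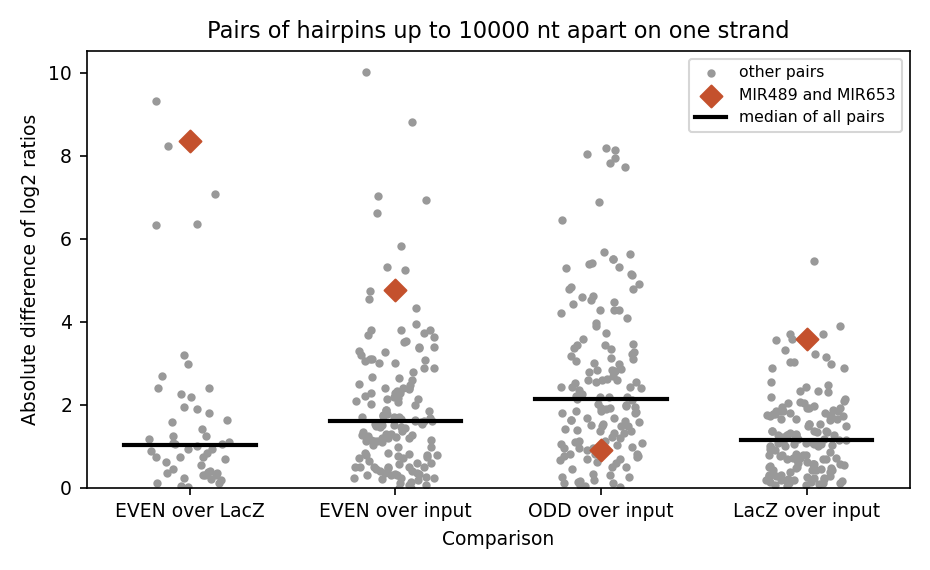
Absolute difference of the log2 ratios of 2 hairpins up to 10000 nt apart on one strand (vertical axis) in 4 comparisons; grey points are other pairs, diamonds are MIR489 with MIR653 and bars are medians over all pairs. The diamond lies above the medians at 8.36 for EVEN over LacZ, 4.77 for EVEN over input and 3.59 for LacZ over input. For ODD over input it lies below the median at 0.92, a value that rests on 3 and 2 ODD reads.

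The pattern over the 4 libraries was also set beside that of every miRNA with at least 20 reads in at least 1 library, as the Euclidean distance between log2 shares centred on their own mean. Nearest to miR-489-3p among 482 others were miR-1273c (distance 1.25 on the log2 scale), miR-188-3p (1.43) and let-7e-3p (1.50), while miR-653-3p of the same intron was number 405 at 5.95. miR-188-3p had 566 CPM in EVEN, 14.1 in ODD, 87.0 in LacZ and 338 in the input, from 56, 6, 37 and 1010 reads. let-7e-3p, a passenger arm of the let-7 family, had 212 CPM in EVEN, 9.38 in ODD, 9.40 in LacZ and 30.5 in the input, from 21, 4, 4 and 91 reads. miR-1273c had 3 reads in EVEN, 0 in ODD and LacZ and 23 in the input, so its place rests on few reads.

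Nearest to miR-653-3p were miR-548e-3p (1.06), miR-449a (1.14) and miR-628-5p (1.19). miR-449a, whose family is known from ciliated cells, had 30.3 CPM in EVEN, 9.38 in ODD, 1575 in LacZ and 155 in the input, from 3, 4, 670 and 463 reads, so that it too was highest in LacZ. miR-548e-3p had 16 LacZ and 75 input reads and miR-628-5p 15 and 81, and both had 0 reads in EVEN and ODD. With 5 instead of 0.5 added to each count, 0 of these 3 stayed among the 3 nearest to miR-653-3p, while 2 of the 3 nearest to miR-489-3p did.

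The arms were compared with the other 2366 listed miRNAs with a RefSeq sequence by unbroken shared runs. Copies with spaced mismatches were not searched for. The longest run of bases shared with any of them was 8 for miR-489-3p and 9 for miR-653-5p and miR-653-3p. Of the 4 miRNAs that share such a run with miR-489-3p, let-7e-3p was the only one with over 10 reads in any library. Their common run, at bases 12 to 19 of miR-489-3p and 2 to 9 of let-7e-3p, is shown in capitals because these arms had similar profiles. The run was looked at after the values were seen, and it does not occur in exon 2 of HIPK3.
miR-489-3p: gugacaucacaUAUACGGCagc
let-7e-3p: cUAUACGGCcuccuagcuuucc

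Exon 2 of HIPK3, at chr11:33286413-33287511 on the plus strand of GRCh38 and 1099 nt long, was searched on its sense strand, including the back-splice junction, for the complement of each seed. For miR-489-3p, the motif GATGTCA (DNA letters) had 0 matches, and the shorter motif ATGTCA for bases 2 to 7 also had 0. For miR-653-3p, CCAGTGA had 1 match, and for miR-653-5p, TTCAACA had 2. The matches are shown in capitals because they are the sites at which a member's seed could pair with the captured exon.
miR-653-3p match, chr11:33286895-33286901: catgggaaatCCAGTGAcagttgtgac
miR-653-5p match, chr11:33287322-33287328: cggcccattcTTCAACAagtggccact
miR-653-5p match, chr11:33287482-33287488: agactgtttgTTCAACAtatctacaat
None crossed the junction. GATGTCA was found in 8.49%, CCAGTGA in 11.8% and TTCAACA in 10.0% of 17610 windows of 1099 nt, each from the middle of the longest protein-coding transcript of a gene. Of 2367 listed miRNAs with a RefSeq sequence, 175 (7.39%) had at least 1 match of bases 2 to 8 in exon 2. A match is a description of letters. miR-653-3p, with 1 match, had 2 reads in each circHIPK3 pull-down, and miR-489-3p, with 0 matches, had 50 reads in EVEN and 3 in ODD. miR-653-5p, with 2 matches, had only 2 input reads and 0 in each pull-down, too few to compare. Whether seed matches bear on recovery was not tested.

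The antisense probes pair with exon 2 itself, so the longest run that each arm shares with exon 2 on the same strand was also measured. It was 7 bases for miR-489-3p and 8 bases for miR-653-3p and miR-653-5p, beside a median of 7 over the 2367 miRNAs. Of these miRNAs, 58.6% had a run of 7 or more and 20.7% a run of 8 or more. On the opposite strand, the longest run complementary to exon 2 was 9 bases for miR-653-3p, a length that 5.32% of the 2367 reached. It was 7 bases for miR-489-3p and miR-653-5p, where the median was 7 and 60.6% had a run of 7 or more. Pairing with the exon was not tested. The probe sequences were not used here.

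Of other miRNAs linked to satellite cells, 3 were at or near 0 and 1 was lower with EVEN probes than with LacZ. A list of 5 miRNAs tied to satellite cell quiescence in mouse held miR-489-3p, miR-31-5p, miR-195-5p, miR-497-5p and miR-708-5p. miR-31-5p, miR-195-5p and miR-497-5p had 4, 1 and 2 input reads and at most 1 read in any pull-down. miR-489-3p is an arm of the cluster itself, so its detection does not bear on the label of a satellite cell cluster. Apart from it, miR-708-5p was the only list member with at least 20 reads in any library. miR-708-5p had 394 CPM in EVEN, 385 in ODD, 1262 in LacZ and 1059 in the input, from 39, 164, 537 and 3164 reads. It was 3.20-fold lower in EVEN (2.31 to 4.55) and 3.28-fold lower in ODD (2.75 to 3.93) than in LacZ, and with TMM factors, another scaling of the libraries, the ODD call was lost at a log2 ratio of -0.42. Of the 2 list members tested for EVEN over LacZ, miR-489-3p itself was higher and miR-708-5p lower, beside 9.69% and 51.2% of all tested miRNAs.

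A second list held 5 miRNAs of muscle differentiation, miR-1-3p, miR-133a-3p, miR-133b, miR-206 and miR-486-5p, all tested in each comparison. For EVEN over LacZ 2 were at least 2-fold higher, miR-133a-3p and miR-133b, and 1 lower, miR-1-3p, beside 9.69% and 51.2% of all tested miRNAs, with a list median of 0.69 on the log2 scale against -1.06 for all tested miRNAs. miR-206, which promotes myoblast differentiation, had 95311 CPM in EVEN, 32745 in ODD, 59009 in LacZ and 42097 in the input, and lay 1.62-fold above LacZ in EVEN (1.58 to 1.65). With median-of-ratios size factors 4 of the list were higher and 1 lower, beside 43 higher and 107 lower of the 289 tested miRNAs. For ODD over LacZ 0 were higher and 3 lower, a share near that of all tested miRNAs (13.0% higher and 70.3% lower). The list median was -1.78 against -1.79 for all tested miRNAs. With TMM factors 0 of the list were lower, beside 103 of the 300 tested miRNAs, and with size factors 0, beside 96. For EVEN over ODD 4 were higher and 0 lower, beside 37.9% and 18.2% of all tested miRNAs. Here the list median was 1.59 against 0.64 for all tested miRNAs. With TMM or size factors 2 of the list were higher. Of the 203 tested miRNAs, 20 were then higher and 64 lower with TMM factors, and 19 and 64 with size factors. miR-206 was 2.91-fold higher with EVEN than with ODD probes (2.84 to 2.99), and at a log2 ratio of 0.52, under 2-fold, with TMM factors. miR-1-3p, its relative with the same role in muscle, had 1627 CPM in EVEN, 1402 in ODD, 4819 in LacZ and 13995 in the input, and was 2.96-fold below LacZ in EVEN (2.52 to 3.50).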

How the data were processed

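Small RNA from 1 input and 3 pull-down libraries of RD cells was prepared with a QIAseq miRNA kit for single-end NovaSeq sequencing, per the labels' protocols. For each mature miRNA the authors deposited raw counts and CPM, which equal count over library total to within 1.46e-11 CPM. The submitters' processing notes name GRCh38. Not given in the sources used here are the aligner, the annotation, the rule for reads with several matches and whether molecular identifiers were collapsed. Without collapsing, reads are not independent molecules and the intervals would be too short.

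By their titles the 4 libraries form 4 groups, so no test across replicates exists. Log2 ratios used (count + 0.5) over the library total. Folds are ratios of shares with 95% exact conditional Clopper-Pearson intervals, shares have exact binomial intervals, and bounds use a floor of 3 counts per library. Shares do not measure absolute amounts. The members and lists were chosen with earlier results of these data known. The text names the members, the 3 miRNAs with the nearest profile to each measured one, and the listed miRNAs with most reads; other names are given to complete small counts. RefSeq (GRCh38.p14) gave mature sequences for 3 of the 4 members and 2367 of 2656 miRNAs, and GENCODE release 29 the exons.

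Scaling was repeated with DESeq2 1.42.0 size factors, with edgeR 4.0.16 TMM factors and with totals that leave out the 10 most abundant miRNAs. Other alternatives were 5 added to each count, minimums of 1 and 100 reads, a 4-fold threshold, and 2-fold with an interval that excludes 1. The steps were tested on simulated data. The software was R 4.3.3 and Python 3.11.15 with scipy 1.17.1, numpy 2.4.6, matplotlib 3.10.9 and pandas 2.3.3.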

Additional observations from a re-analysis of the deposited data

Results flagged for a closer look

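miR-489-3p lay above LacZ with EVEN probes and below it with ODD probes, and differed 71.8-fold between the sets. The ODD side rests on 3 reads against 11, with an interval that includes no difference. Among the other miRNAs named, 3 passed 2-fold in opposite directions, above LacZ in the EVEN and below it in the ODD library, namely miR-188-3p, miR-133b and miR-133a-3p. They were 40.2-fold, 11.9-fold and 8.17-fold higher with EVEN than with ODD probes. miR-188-3p was named because its profile lay near that of miR-489-3p, so its directions follow from how it was chosen. Of all tested miRNAs, 9.69% were at least 2-fold higher for EVEN over LacZ and 70.3% at least 2-fold lower for ODD over LacZ. The share of all tested miRNAs that passed in both directions was not counted. With TMM factors the ODD side of miR-133a-3p and miR-133b fell under 2-fold, at log2 ratios of -0.63 and -0.81. With 1 library per probe set, none of these differences was tested, and both sets were compared with the same LacZ library.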

How the results depend on the processing

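miR-489-3p for EVEN over LacZ kept its direction under the 4 scaling and constant alternatives (log2 ratio 3.89 to 4.66), as did miR-653-3p (-4.12 to -2.67, ODD -6.22 to -4.77). miR-653-3p for EVEN over the input ran from -2.52 to -0.72, and adding 5 ended that call. Called members were 1 and not 2 for EVEN over LacZ at 100 reads and for EVEN over the input with 5 added, 2 and not 1 with no minimum for ODD over LacZ and EVEN over ODD, 0 for EVEN over ODD at 100 reads, and 0 for LacZ over the input at 4-fold. With 5 added, 293 of 464 tested miRNAs were called for EVEN over the input, and the other settings follow below. With no minimum, the extra calls for ODD over LacZ and EVEN over ODD rest on 3 and 11 reads and on 2 and 2 reads. EVEN over the input then gave 3 called members and not 2, with 2 higher and 1 lower. Of the 1170 miRNAs tested there, 677 were higher and 242 lower. The added member was miR-653-5p, called higher at 0 reads in EVEN and 2 in the input only through the 0.5 added to each count. miR-489-5p, at 0 reads in each library, gave no ratio. With 5 instead of 0.5 added, the log2 ratio of the 3p over the 5p arm was 5.69 and not 8.99 for MIR489 and 5.64 and not 7.10 for MIR653 in the input, 3.46 and not 6.66 for MIR489 in EVEN, and 5.26 and not 8.54 for MIR653 in LacZ.

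TMM factors moved the median over tested miRNAs (log2 scale) from -1.06 to -0.80 for EVEN over LacZ, from -1.79 to -0.50 for ODD over LacZ and from 0.64 to -0.38 for EVEN over ODD. With no read minimum the medians were -0.22 for EVEN over LacZ, -1.59 for ODD over LacZ and 0.52 for EVEN over ODD. Against the input, dropping the minimum moved the median from -1.06 to 1.48 for EVEN, from -2.19 to 0.00 for ODD and from -0.44 to 0.49 for LacZ. Calls, over the number tested in each, follow for the main setting, no minimum, 100 reads and 4-fold. EVEN over LacZ gave 176 of 289, 397 of 789, 95 of 158 and 88 of 289. ODD over LacZ gave 250 of 300, 672 of 843, 138 of 170 and 157 of 300. EVEN over ODD gave 114 of 203, 343 of 660, 69 of 118 and 47 of 203. EVEN over the input gave 327 of 464, 919 of 1170, 214 of 303 and 199 of 464. LacZ over the input gave 249 of 475, 703 of 1207, 151 of 307 and 100 of 475. ODD over the input gave 382 of 468 in the main setting and 840 of 1194 with no minimum. Size factors gave 164 of 300 for ODD over LacZ. EVEN over ODD turned from 77 higher and 37 lower to 20 and 64 with TMM factors and 19 and 64 with size factors, and ODD over LacZ became 66 and 103, and 68 and 96. The split for EVEN over LacZ became 43 and 107 with size factors and 44 and 107 without the 10 most abundant, for EVEN over the input 123 and 176, for ODD over the input 102 and 243 and for LacZ over the input 108 and 127 without them, and 63 and 246 with TMM factors. With 5 added, EVEN over the input gave 194 and 99, LacZ over the input 100 and 93, and the log2 ratios to the input turned to 0.92 for miR-548e-3p and 0.81 for miR-628-5p in EVEN and to 0.32 in ODD and 0.33 in LacZ for miR-1273c, all at 0 reads there. No paired analysis was possible because each group has 1 library.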
